A study of Mus musculus with 4 samples.

Results

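Cholesterol synthesis was followed through 8 genes: Srebf2, Insig1, Hmgcs1, Idi1, Fdft1, Sqle, Lss and Cyp51. They were chosen by name, as the rows of those symbols in the gene count tables, and all 8 were found among the 25239 gene symbols and passed the filter on low counts. The cells were mouse embryonic stem cells (mESC) with both Ogt alleles flanked by loxP sites (Ogt fl/fl). Ogt encodes O-GlcNAc transferase, which attaches N-acetylglucosamine to proteins in the nucleus and cytosol. Libraries of polyadenylated RNA were compared, 2 from each group. The Ogt iKO cells had received 4-hydroxytamoxifen (4-OHT, which activates tamoxifen-dependent recombinases) for 6 days, and the control cells were kept without it for the same time. Both groups grew on mitomycin-treated fibroblast feeders with LIF and serum replacement, and both were sorted for viable cells with antibodies to CD90.2 and CD326. The labels give CD90.2 as the stem cell marker and CD326 as the one that leaves out feeders, whereas CD326 (EpCAM) is better known from stem cells and CD90 (Thy1) from fibroblasts, so how well the sort removed feeders is uncertain. The treated cells alone were also sorted for a yellow fluorescent protein. Which recombinase was expressed, and from which promoter, is not given in the sources used here, and no 4-OHT-treated cells with intact Ogt were among the samples. Loss of Ogt, the ligand, the recombinase and the extra sort therefore cannot be told apart. Nothing in the labels says that the 2 libraries of a group came from separate cultures, so p-values measure the spread between these libraries, which may be technical.

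Cells make cholesterol from acetyl-CoA through mevalonate, farnesyl diphosphate, squalene and lanosterol. SREBP2, the product of Srebf2, is a transcription factor held as a precursor in the membrane of the endoplasmic reticulum by SCAP and the INSIG proteins while sterols are plentiful. When sterols fall, SCAP escorts it to the Golgi, proteases release its active part, and genes of cholesterol synthesis and uptake are transcribed. Proliferating stem cells make membranes and are known to depend on this pathway. The counts measure RNA only, so whether these genes were bound by SREBP2 in the cells was not measured.

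The response in Ogt iKO cells was small and uneven. Cyp51 rose 1.70-fold, Fdft1 1.41-fold and Lss 1.26-fold, all enzymes that act after farnesyl diphosphate. Srebf2 and Insig1 rose by 1.10-fold and 1.14-fold, just inside the threshold, while Hmgcs1, Sqle and Idi1 did not pass it. In all, 5 of the 8 genes passed an adjusted p of 0.05 with higher expression in Ogt iKO, as did 33.2% of the 14525 genes tested. With 65.3% of those genes called in either direction, 5 of 8 called is a share near the background. None of the 8 was called lower by edgeR (0 also at an unadjusted p under 0.05, and 0 by DESeq2), against 32.0% of all genes. In 6 of the 8 both Ogt iKO libraries lay above both controls, as they did in 42.3% of all genes, and in 83.2% of all genes the groups did not overlap in one direction or the other. Their median log2 fold change was 0.16, against 0.024 for all genes tested.

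Promoter sequences were searched for elements that the pathway's regulation is known for. Those of the regulator and of 3 enzymes that differ in response are given. Each is the 250 bases before the gene's start in RefSeq, on the gene's own strand, in GRCm38.p6, the assembly that mm10 names. Capitals mark 3 motifs searched on both strands: a core of the sterol regulatory element (TCACCNCA or its reverse complement), the NF-Y box CCAAT (or ATTGG) and the Sp1 box GGGCGG (or CCGCCC). NF-Y and Sp1 are general promoter factors known to act beside SREBP2.
Srebf2, the regulator, chr15:82147019-82147268, plus strand: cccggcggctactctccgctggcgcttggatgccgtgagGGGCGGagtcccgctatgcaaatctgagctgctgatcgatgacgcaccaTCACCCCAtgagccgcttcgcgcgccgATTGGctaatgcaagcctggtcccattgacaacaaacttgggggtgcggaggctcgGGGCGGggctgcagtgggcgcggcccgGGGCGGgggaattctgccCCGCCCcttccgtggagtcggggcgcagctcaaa
Hmgcs1, not called, chr13:119690101-119690350, plus strand: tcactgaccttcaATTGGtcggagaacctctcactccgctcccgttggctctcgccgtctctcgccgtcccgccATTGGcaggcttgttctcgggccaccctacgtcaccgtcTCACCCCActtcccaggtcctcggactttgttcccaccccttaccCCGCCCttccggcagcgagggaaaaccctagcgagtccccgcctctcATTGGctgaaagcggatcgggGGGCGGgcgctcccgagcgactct
Lss, higher, chr10:76531355-76531604, plus strand: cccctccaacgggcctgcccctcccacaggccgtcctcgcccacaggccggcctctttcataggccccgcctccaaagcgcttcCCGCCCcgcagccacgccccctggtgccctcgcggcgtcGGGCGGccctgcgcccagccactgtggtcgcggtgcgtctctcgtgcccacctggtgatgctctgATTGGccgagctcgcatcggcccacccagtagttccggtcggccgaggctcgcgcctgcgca
Cyp51, the largest rise, chr5:4104698-4104947, minus strand: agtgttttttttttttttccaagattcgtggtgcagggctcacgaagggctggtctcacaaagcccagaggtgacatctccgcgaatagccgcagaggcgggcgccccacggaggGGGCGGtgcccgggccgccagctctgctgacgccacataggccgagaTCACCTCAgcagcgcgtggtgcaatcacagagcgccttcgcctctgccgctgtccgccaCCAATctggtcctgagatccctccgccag

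The sterol element core was found at position -162 to -155 from the start in Srebf2, -137 to -130 in Hmgcs1 and -88 to -81 in Cyp51. It was thus present in the gene that rose most and in Hmgcs1, which was not called. Its letters were chosen with these promoters in view, and they were found in 3.61% of the 32851 promoters of that table and length. A CCAAT box was found in all 6 of the genes that have a promoter in the table (Srebf2, Insig1, Hmgcs1, Idi1, Lss and Cyp51) and in 33.8% of all promoters. A Sp1 box was found in the same 6 and in 32.7% of all promoters. The matches shared 0 bases in the 4 promoters shown. A match describes the sequence only, and where the letters are missing, as with the sterol element core in Lss, they are missing from this window only.

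The libraries held 14668489 to 16504204 counts each. Ogt fell to 25.6 and 25.1 CPM (counts per 1000000 after TMM scaling) in Ogt iKO, from 191 and 203 CPM in control. Most genes changed, so scaling matters for changes as small as those here. With scaling by library totals alone, the median over all genes moved from 0.024 to 0.19 (log2 fold change) and that over the 8 genes from 0.16 to 0.33, and 65.1% of called genes were then higher, against 50.9% under TMM. All changes below are relative to the bulk of genes.

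Markers of the stem cell state were present but lower in Ogt iKO. The summed level of 10 mESC markers was 2384 and 2704 CPM in Ogt iKO, against 4420 and 4413 CPM in control. Of the 10, 9 were called lower, against 32.0% of all genes tested. The 13 fibroblast markers summed to 2664 CPM in Ogt iKO replicate 1 and 803 CPM in Ogt iKO replicate 2, against 948 and 1068 CPM in control, so Ogt iKO replicate 1 stood highest. None of these markers was at 0, and 4 of the 13 were called higher, a share near the 33.2% of all genes tested. Those were Tagln, Acta2, Pdgfrb and Twist1, named here after their values were seen. Both Ogt iKO libraries lay above both controls in each, as they did in 42.3% of all genes. Acta2, for example, had 138 and 75.9 CPM against 35.1 and 29.99 CPM. The other 9 lay above both controls in Ogt iKO replicate 1 and below both in Ogt iKO replicate 2, as did Col1a1 (also named after its values were seen) with 904 and 179.5 CPM against 294 and 314 CPM. Exons of the opposite strand cover 67.9% of the exon length of Tagln. Of the primitive endoderm markers, 4 of 6 tested were called higher, against 33.2% of all genes tested, while Gata6 and Sox7 were not called. All 8 listed summed to 84.0 and 70.4 CPM against 19.7 and 15.97 CPM, with Ttr at 0 in all libraries. Dab2 alone made up 69.9 and 58.8 CPM of the Ogt iKO sums, against 14.15 and 10.7 CPM in control. Of the trophectoderm markers, 5 of 6 tested were called higher, against 33.2% of all genes tested, while Cdx2 was not called. All 7 listed summed to 135 and 144 CPM against 23.5 and 18.1 CPM, with Elf5 at 2 and 0 counts in Ogt iKO and 0 in both controls. Krt8 alone made up 89.9 and 101 CPM of the Ogt iKO sums, against 8.66 and 5.87 CPM in control. The part of these shifts in the results below was not tested. Without Ogt iKO replicate 1, the log2 fold changes of Cyp51, Fdft1 and Lss were 0.77, 0.60 and 0.40 and still called, Hmgcs1 became called (0.19), and Srebf2 (0.16, adjusted p = 0.0611, edgeR) and Insig1 (0.18, adjusted p = 0.0612, edgeR) lost their calls. In bulk RNA, a different share of cells of a type and a different amount of RNA per cell cannot be told apart.

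The regulators among the 8 genes moved least of those called. Srebf2 lies on chromosome 15 from 82147181 to 82205379 in GRCm38. It stood at 402 and 408 CPM in the Ogt iKO libraries and at 368.0 and 367.9 CPM in the controls. The groups did not overlap, but the mean rise was only 10.0% of the control level. For Srebf2 the log2 fold change of 0.14 had an SE of 0.054 (adjusted p = 0.0484, edgeR), and the call was lost when any one of the 4 libraries was left out (0.10 to 0.16). Insig1, which encodes one of the proteins that retain SCAP and is itself a target of SREBP2, is located on chromosome 5 (28071363 to 28078662). It measured 138 and 136 CPM in Ogt iKO and 127 and 114 CPM in control. Both treated libraries were thus above both controls, and control replicate 1 lay nearest to them. Insig1 had a change of 0.18 (log2, SE 0.067, adjusted p = 0.0391, edgeR). It was no longer called without control replicate 2 (0.098), without Ogt iKO replicate 1 (0.18) or without Ogt iKO replicate 2 (0.17).

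The 2 enzymes of the mevalonate arm among the 8 genes were not called. Hmgcs1 encodes the cytosolic HMG-CoA synthase, an early enzyme of the pathway, and is located on chromosome 13 (119690379 to 119708260). It measured 471 and 512 CPM in Ogt iKO, against 449.7 and 453 CPM in control. The groups did not overlap, yet the Ogt iKO libraries differed from each other by more than the lower one differed from the controls. Hmgcs1 had a log2 fold change of 0.12 (95% interval -0.017 to 0.26, adjusted p = 0.107, edgeR). Leaving out Ogt iKO replicate 2 gave 0.037, and leaving out replicate 1 gave 0.19, which passed the threshold (adjusted p = 0.0248, edgeR). An exon of the opposite strand covers 12.1% of the exon length of Hmgcs1, and near-identical sequence of another gene covers 16.2% of its longest transcript. The search for copies took in both strands, so both shares may describe the same overlap. The count of Hmgcs1 is uncertain.

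Idi1 encodes isopentenyl diphosphate isomerase, which interconverts the 2 isoprene building blocks, and lies on chromosome 13 from 8885501 to 8892451. It had 39 and 30 counts in Ogt iKO (2.28 and 1.93 CPM) and 53 and 25 counts in control (3.42 and 1.63 CPM), the lowest of the 8 genes by far. The controls spanned both treated libraries. Idi1 had a log2 fold change of -0.26 (95% interval -1.08 to 0.56, adjusted p = 0.545, edgeR), an interval that runs from 0.474 to 1.47 of control. Without control replicate 1 it was 0.36, and without control replicate 2 it was -0.71. Sequences at least 95% identical over 100 bases or more occur in annotated transcripts of 3 other genes and cover 33.3% of its longest transcript, which makes its count uncertain. That share can include exons of the opposite strand, which cover 9.22% of the exon length of Idi1. The part of these copies in the low count was not tested.

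**Figure D1:**
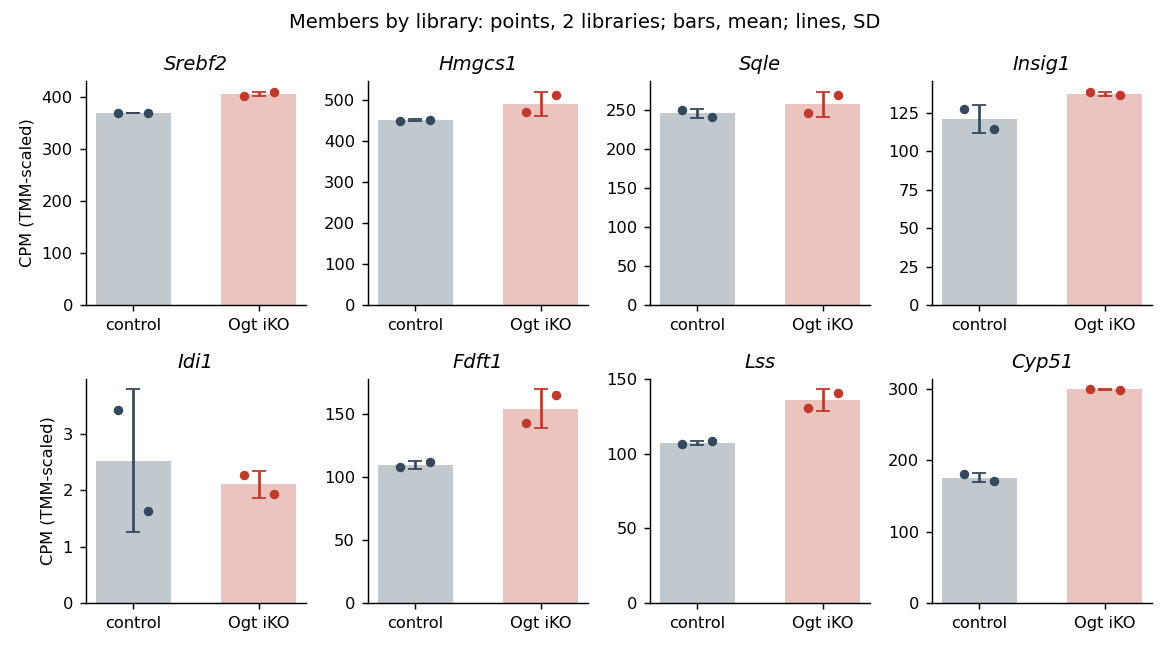
TMM-scaled CPM (vertical axes, each from 0) of the 8 genes in control (grey) and Ogt iKO (red). Points are the 2 libraries of a group, bars the mean and lines the SD. Cyp51 separates most clearly, at 300 CPM in both treated libraries against 181 and 171 CPM, while the Sqle and Idi1 groups overlap.

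Among the 8 genes, the enzymes that act after farnesyl diphosphate included the 3 largest rises. Fdft1, squalene synthase, catalyses the first step committed to sterols and lies on chromosome 14 from 63145150 to 63179578. It stood at 143 and 165 CPM in Ogt iKO and at 108 and 112 CPM in control. Both treated libraries were well above both controls, with replicate 2 the higher. Fdft1 changed by 0.49 (log2, SE 0.076, adjusted p = 0.000573, edgeR). Exons of the opposite strand cover 18.3% of its exon length, and near-identical sequences of 2 other genes cover 54.7% of its longest transcript. The search for copies took in both strands, so these shares can count the same bases. Of the 2 genes, Gm6781 alone covers 33.7%. The count of Fdft1 is therefore uncertain.

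Sqle encodes squalene epoxidase, a rate-limiting oxygen-dependent step, and is located on chromosome 15 (59315077 to 59331192). It measured 245 and 268 CPM in Ogt iKO and 249.2 and 240.8 CPM in control, so the groups overlapped. Sqle had a log2 fold change of 0.067 (95% interval -0.076 to 0.21, adjusted p = 0.369, edgeR). It was -0.022 without Ogt iKO replicate 2.

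Lss encodes lanosterol synthase, which closes the sterol rings, and lies on chromosome 10 from 76531588 to 76557138. It had 131 and 141 CPM in Ogt iKO and 106 and 108 CPM in control. The groups did not overlap and the controls were almost equal. Lss changed by 0.34 (log2, SE 0.063, adjusted p = 0.00153, edgeR), a call lost only when a fold above 1.2 was required.

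Cyp51 encodes lanosterol 14-alpha-demethylase, the first enzyme to act on lanosterol in most cells, and is located on chromosome 5 (4081145 to 4104746). It measured 299.7 and 299.5 CPM in Ogt iKO and 181 and 171 CPM in control. The treated libraries were nearly identical and far above the controls. Cyp51 changed by 0.77 (log2, SE 0.057, 95% interval 0.64 to 0.90, adjusted p = 1.141e-05, edgeR). Cyp51 and Fdft1 were called in all 14 alternative settings, Lss in 13, Insig1 in 7, Srebf2 and Hmgcs1 in 3, Sqle in 1 and Idi1 in 0.

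**Figure D2:**
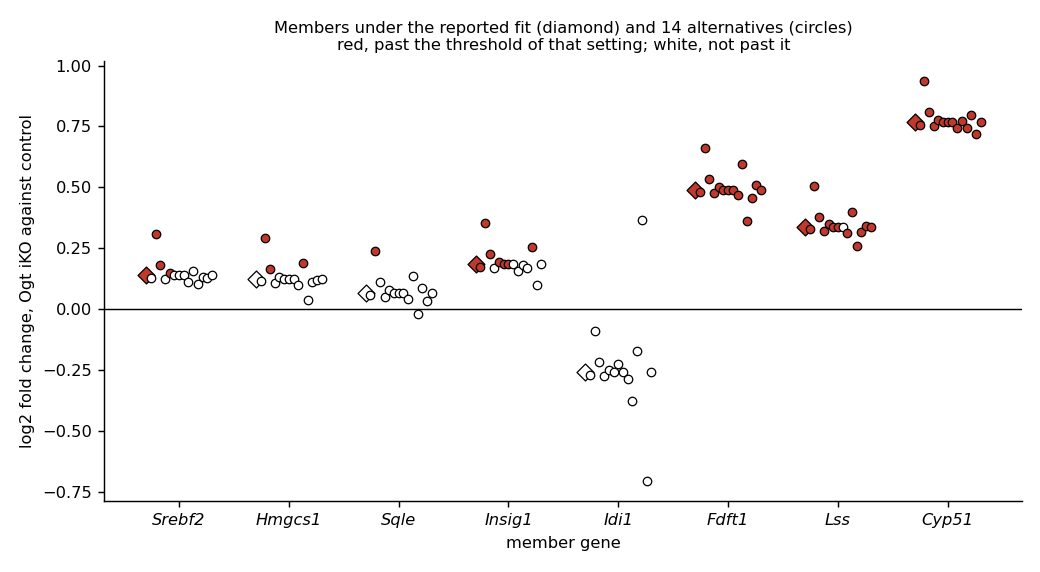
Log2 fold change of Ogt iKO against control (vertical axis) for each of the 8 genes, in the reported fit (diamond) and in 14 alternatives of scaling, filter, test and left-out library (circles). Red points are past the threshold of that setting: Fdft1, Lss and Cyp51 stay apart from 0 in all of them, whereas the points of Sqle and Idi1 lie on both sides of it.

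Levels can be compared between genes only per length, so CPM was divided by the exon length in kilobases (all annotated transcripts merged). On that scale the control order was Hmgcs1 at 98.2, Srebf2 at 51.2, Sqle at 44.2, Cyp51 at 39.8, Insig1 at 39.1, Fdft1 at 25.9, Lss at 9.96 and Idi1 at 0.721 CPM per kb. Only Cyp51 and Insig1 were neighbours whose libraries overlapped in control. In Ogt iKO, Cyp51 stood second at 67.9 CPM per kb, above Srebf2 at 56.4, and Hmgcs1 stayed first at 107. There Sqle at 46.3 and Insig1 at 44.4 CPM per kb were the overlapping neighbours, followed by Fdft1 at 36.5, Lss at 12.6 and Idi1 at 0.601. The long merged model of Lss, 10787 bases, lowers its value on this scale. Summed without regard to length, the 8 genes gave 1832 and 1932 CPM in Ogt iKO and 1592 and 1569 CPM in control.

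**Figure D3:**
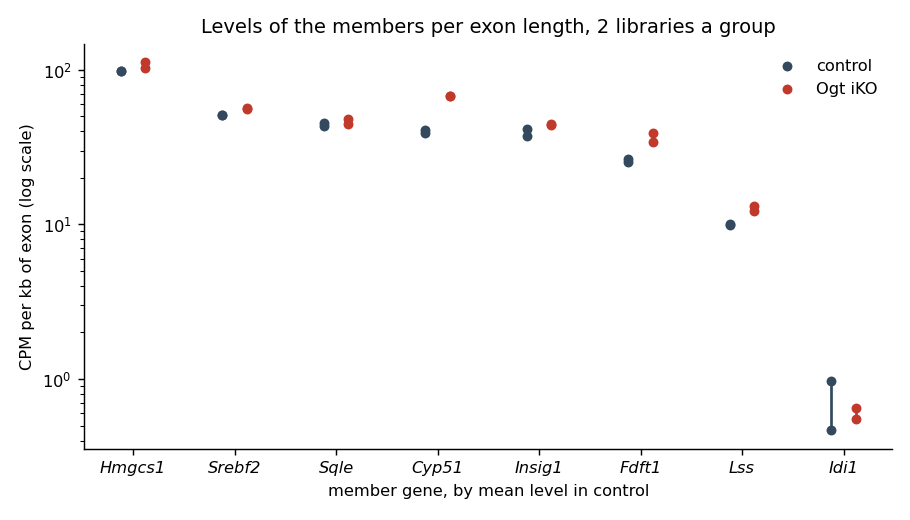
CPM per kilobase of exon (vertical axis, log scale) of the 8 genes, ordered by their control mean, in control (grey) and Ogt iKO (red). Each point is a library. Hmgcs1 is highest in both groups, Cyp51 moves from place 4 to place 2, and Idi1 lies below 1 CPM per kb in all 4 libraries.

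The other enzymes of the pathway moved in both directions. Of 16 further enzymes, all tested, 9 were higher, 3 were lower and 4 were not called, with a median log2 fold change of 0.18. This count and those of the gene lists below stand beside 33.2% higher, 32.0% lower and a median of 0.024 over all genes tested. The largest rise was that of Tm7sf2, a sterol C14-reductase (log2 fold change 1.31, from 12.4 CPM ± 0.629 to 30.8 CPM ± 2.81, SD, n = 2). Same-strand exons of other genes cover 12.1% of the exon length of Tm7sf2. Dhcr7, the last reductase of cholesterol synthesis by one of its routes, rose by 1.03, from 116 CPM ± 1.88 to 237 CPM ± 6.29 (SD, n = 2). Mvd, which makes isopentenyl diphosphate just before Idi1 acts, rose by 0.99, to 1.99-fold of control. Nsdhl and Sc5d, which demethylate and desaturate sterol intermediates, rose by 0.68 and 0.66, and Erg28, a scaffold for such enzymes, by 0.50. These 6 genes were called in all 14 alternatives.

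The rise of Acat2, which makes acetoacetyl-CoA, was small and less firm, with a log2 fold change of 0.24. It lost the call without Ogt iKO replicate 2 (0.18) and without control replicate 2 (0.17). Most of the longest Acat2 transcript (65.6%) has near-identical sequence in other genes, so its count is uncertain. Hsd17b7, a sterol 3-ketoreductase, fell to 0.535 of control (log2 fold change -0.90). It had 258 and 165 counts in Ogt iKO and 387 and 357 in control, and its change was -0.70 without Ogt iKO replicate 2 and -1.18 without replicate 1. Mvk, mevalonate kinase, fell by 0.39 and Ebp, a sterol isomerase, by 0.34. The fall of Ebp lost its call without Ogt iKO replicate 1 (-0.26), without control replicate 1 (-0.28) and under library totals (-0.17). Pmvk (0.0049), Fdps (-0.16), Lbr (-0.12) and Msmo1 (-0.0023) were not called. Same-strand exons of other genes cover 26.7% of the exon length of Fdps. Fdps was called lower without Ogt iKO replicate 2 (-0.28, adjusted p = 0.00876, edgeR) and was -0.070 without Ogt iKO replicate 1, and Lbr was called lower with DESeq2 (-0.15, adjusted p = 0.0484).

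Set in reaction order, with the 8 enzymes up to farnesyl diphosphate separated from the 14 after it, 3 of the early enzymes were higher and 1 lower, and 9 of the late enzymes were higher and 2 lower. The medians of log2 fold change were 0.064 and 0.41. This division follows the chemistry and was made with the values known, so it is a description without a test.

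**Figure D4:**
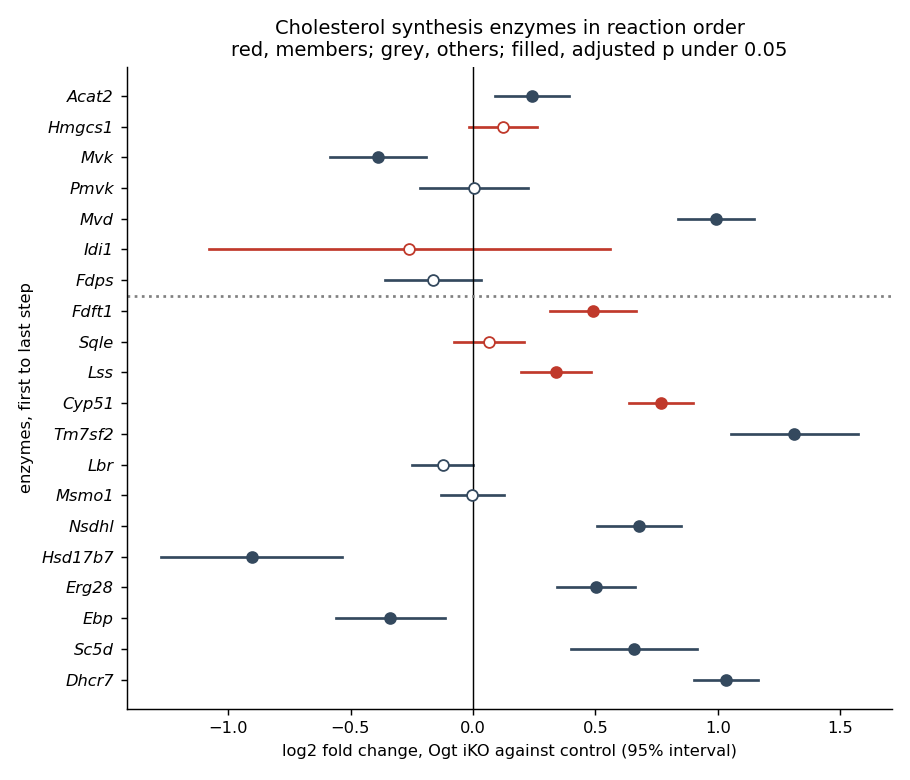
Log2 fold change of Ogt iKO against control with its 95% interval (horizontal axis) for 20 of the 22 cholesterol synthesis enzymes, first step at the top; the dotted line marks farnesyl diphosphate. Red marks enzymes among the 8 genes, grey the others, and filled points an adjusted p under 0.05: 10 of those shown are higher and 3 lower, with Tm7sf2 at 1.31 and Hsd17b7 at -0.90 as the extremes.

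Genes that move and degrade SREBP2 and its partners changed in both directions. Of 12 genes, 6 were higher, 3 were lower and 3 were not called (median log2 fold change 0.13). Scap, the escort of SREBP2, had 168 CPM ± 1.83 in Ogt iKO and 86.2 CPM ± 0.731 in control (SD, n = 2), which is a change of 0.96 (log2, SE 0.057, adjusted p = 4.214e-06, edgeR). Exons of the opposite strand cover 13.2% of its exon length.

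Fbxw7, part of a ligase that degrades active SREBPs, rose by 0.63, Erlin1, a membrane protein of the same degradation pathway as INSIG1, by 0.58 and Insig2, the second retention protein, by 0.45. These genes and Scap were called in all 14 alternatives. Srebf1, which encodes the sister factor SREBP1, had a log2 fold change of 0.19, a call lost without Ogt iKO replicate 1 (0.19), without Ogt iKO replicate 2 (0.18) and without control replicate 2 (0.13). Rnf145, a ligase that binds SCAP and INSIG proteins, fell by 0.39. Mbtps2, the site-2 protease, and Rnf139, another ligase, had log2 fold changes of -0.24 and -0.23, and both lost the call under library totals (-0.070 and -0.057) and without control replicate 2 (-0.17 and -0.26). Mbtps2 also lost it without Ogt iKO replicate 1 (-0.23), and Rnf139 without Ogt iKO replicate 2 (-0.17) or control replicate 1 (-0.21). Both lost it with upper-quartile scaling and DESeq2 too. In all, Mbtps2 was called in 7 of 14 alternatives and Rnf139 in 4. Same-strand exons of other genes cover 28.4% of the exon length of Mbtps2. Sequence shared with other genes covers 33.1% of the longest Rnf139 transcript. That share can include exons of the opposite strand, which cover 22.3% of the exon length of Rnf139. Mbtps1, the site-1 protease (0.048), Erlin2 (0.062) and Faf2 (-0.023) were not called.

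Genes of cholesterol uptake and transport, several of them known SREBP2 targets, did not move as one. Of 14 genes, 10 were higher, 2 lower and 2 not called (median log2 fold change 0.37). Stard4, a sterol carrier that SREBP2 is known to induce, fell by 0.74, and Tmem97, another sterol-regulated gene, fell by 0.65. Soat1, which esterifies cholesterol, rose by 0.60. Gramd1c, a sterol transporter at membrane contacts, rose by 2.26 from 25 and 30 counts to 148 and 131.

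The liver X receptors (LXR), which answer to oxysterols and drive efflux, were listed with some of their targets and with the oxysterol-metabolising enzymes Ch25h, Cyp27a1 and Cyp7b1, which were not called and are named after their values were seen. Of these 10 genes, 3 were higher, 2 lower and 5 not called (median log2 fold change 0.26). The cholesterol exporters Abcg1 and Abca1 rose by 1.30 and 1.24, to 2.47-fold and 2.36-fold of control, and Lpcat3, a phospholipid-remodelling enzyme, rose by 0.36. Nr1h2, the receptor LXR-beta, fell by 0.59. Mylip, a ubiquitin ligase and known LXR target, had a log2 fold change of -0.68 and lost its call without control replicate 2 (-0.65) and with DESeq2 (-0.71).

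Fatty acid synthesis, which is driven mainly by SREBP1, was called in all 16 of its listed genes: 11 were higher and 5 lower (median log2 fold change 0.39). The count was 13 when a fold above 1.2 was required and 15 without control replicate 1. Acly, which supplies acetyl-CoA to both pathways, rose by 0.62, from 784 CPM ± 6.13 to 1209 CPM ± 7.33 (SD, n = 2). The malic enzyme Me1 rose by 0.93, the desaturases Fads2 and Scd2 by 0.91 and 0.55, and fatty acid synthase, Fasn, by 0.35. Acacb, the mitochondrial acetyl-CoA carboxylase, fell by 1.89 and Mid1ip1, an activator of that enzyme family, fell by 0.88. An exon of the opposite strand covers 25.5% of the exon length of Mid1ip1.

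The mevalonate pathway also feeds prenylation, dolichol and ubiquinone. Of 16 genes of those branches, 4 were higher, 4 lower and 8 not called (median log2 fold change 0.050). Icmt, which methylates prenylated proteins, rose by 0.78, while Rabggtb, a subunit of the enzyme that prenylates Rab proteins, fell by 0.87 and Ggps1, which makes geranylgeranyl diphosphate, fell by 0.40. Pggt1b, a subunit of a protein prenyltransferase, rose by 0.39, and Chm, a Rab escort protein, had a log2 fold change of 0.36 whose call was lost without control replicate 1 (0.30) and with DESeq2 (0.34).

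**Figure D5:**
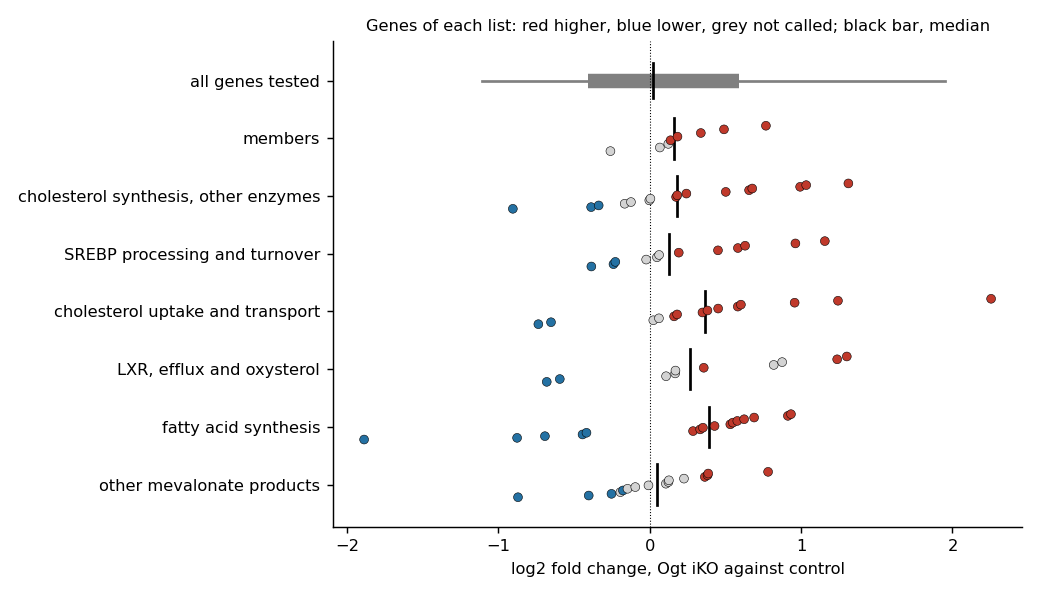
Log2 fold change of Ogt iKO against control (horizontal axis) for every tested gene of the 7 lists, coloured red where higher, blue where lower and grey where not called; black bars are medians. The top row gives the median, quartiles (thick bar) and 5th to 95th percentile (thin line) of the 14525 genes tested: the 8 genes (members) span -0.26 to 0.77, while uptake and transport reaches 2.26 and fatty acid synthesis -1.89.

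For likeness, each gene's log2 CPM was centred on its own mean over the 4 libraries and set against the mean profile of the 8 genes. Ccp110, Tmem9, Nelfa, Zfp212 and Bet1l were nearest, at Euclidean distances of 0.014 to 0.027. The candidates were the 11928 genes with a mean log2 CPM between those of Idi1 (1.29) and Hmgcs1 (8.88), a wide range. With 212 genes within 0.1 of that profile over only 4 libraries, such nearness describes a common small shift. Of the 8 genes themselves, only Insig1 (0.072) lay within that distance, and Cyp51 (0.53) and Idi1 (0.76) lay farthest.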

How the data were processed

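The authors deposited 1 table of raw counts per gene for each of 4 libraries, keyed by gene symbol, as whole numbers without normalization. Per the submitters' processing notes, STAR and Picard were used with the build mm10; versions, annotation and strand setting are not given in the sources used here. Per the labels' protocols, the kit was stranded and selected mRNA. Groups came from the titles in the labels. Of the rows, 0 named no gene.

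The test was edgeR's quasi-likelihood F test (version 4.0.16, under R 4.3.3) on 1 fit of all 4 libraries with TMM factors, filterByExpr and no covariate. Adjusted p is by Benjamini-Hochberg over all 14525 genes tested, and genes under 0.05 are called. Standard errors come from the fold change and its F statistic, and 95% intervals from the test's degrees of freedom. The procedure was tested on simulated data in which few genes changed, as many up as down. Scaling where most genes change was therefore not tested there. Exon lengths, overlaps and positions came from GENCODE M21 (GRCm38), and near-identical copies from BLAST 2.17.0. The search for copies took in both strands and did not leave out overlapping genes. Log2 CPM for the likeness measure used a prior count of 2.

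The text names Ogt, the 8 genes, all other synthesis and SREBP processing genes, up to 5 genes of each other list by adjusted p, and Stard4, Abca1, Fasn and Scd2 whatever their values. Some genes that the rule or the lists hold are counted but not reported by name here. Members and lists were chosen with earlier results of these data known. Alternatives were RLE, total or upper-quartile scaling, DESeq2 1.42.0, other filters, a robust spread, a replicate block, stricter thresholds and leaving out each library. Within groups, libraries differed beyond counting noise (chi-square per degree of freedom 7.43 and 4.47).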

Additional observations from a re-analysis of the deposited data

How the results depend on the processing

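Over 14 alternatives, 5 of the 8 genes called higher became 7 with library totals, 6 with upper-quartile scaling, 3 with no filter on low counts, 3 with DESeq2 1.42.0, 3 at an adjusted p under 0.01 and 2 when a fold above 1.2 was required, and 3 to 4 with 1 library left out (3 without Ogt iKO replicate 2 or control replicate 2). The 3 lower calls among the other enzymes became 1 when that fold was required, 2 with library totals, 2 at an adjusted p under 0.01 and 2 to 4 with 1 library left out (4 without Ogt iKO replicate 2). The 8 calls among other mevalonate products became 10 with library totals, 9 with RLE, 9 with the replicate block, 6 with upper-quartile scaling, 3 when that fold was required, 5 with DESeq2, 5 at an adjusted p under 0.01 and 5 to 8 with 1 library left out (5 without control replicate 1). Stricter thresholds call fewer genes by construction; for the rest the cause was not tested. The log2 fold changes that changed sign belong to genes near 0 or of low count. Under library totals these were Fdps (0.0044), Lbr (0.046), Msmo1 (0.17, adjusted p = 0.0245) and Faf2 (0.15). With upper-quartile scaling they were Msmo1 (0.040) and Faf2 (0.019), and with a minimum CPM of 1 in 2 libraries Msmo1 (0.0071). For Pmvk they were -0.0042 with RLE, -0.012 with no filter and -0.019 with DESeq2. With 1 library left out, the ranges were -0.022 to 0.14 for Sqle, -0.71 to 0.36 for Idi1, -0.14 to 0.13 for Pmvk, -0.046 to 0.023 for Msmo1, -0.016 to 0.097 for Mbtps1, -0.076 to 0.0089 for Faf2 and -0.017 to 0.13 for Erlin2. Of 840 values for 60 genes, 731 kept direction and side of the threshold. The replicate numbers are only names: deviations of same-numbered libraries correlated at 0.086 across genes. The replicate block gave 4 of the 8 genes higher and 9641 calls over all genes, against 9478 without it; among the 8 genes, Srebf2 (adjusted p = 0.109) was no longer called there. With 1 library left in a group, its spread is assumed to be like that of the other group. Counting depth limits Idi1, at 25 to 53 counts.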
